A study of Homo sapiens with 19 samples.

Results

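The zinc finger genes described here were the 241 of 19942 protein-coding rows whose gene identifier maps, in GENCODE release 44, to a gene on human chromosome 19 with a name made of ZNF and digits. The name and the position alone define the set, and none of the values below is part of that rule. C2H2 zinc finger proteins bind DNA through repeated small domains that hold a zinc ion. Most of those encoded on chromosome 19 also carry a KRAB domain, which recruits the co-repressor TRIM28 and, with it, histone methylation and heterochromatin proteins. The family arose by tandem duplication, is best known for silencing retrotransposons, and lies in dense clusters along the chromosome.

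All data came from SH-SY5Y, a human neuroblastoma cell line. Poly-A RNA-seq was available as 1 library each after control siRNA (siCtrl) and after siRNA against the stress granule proteins G3BP1 (siG3BP1) or G3BP2 (siG3BP2). A further library each, whose RNA selection is not given in the sources used here, was made from cleared lysate of sodium arsenite (AS)-treated cells (Total) and from stress granule cores of such cells, purified with an antibody to G3BP1 (SG). RNA-seq after rRNA depletion had 1 untreated library and 1 library labelled 500 μM AS for 1 h, and eCLIP of G3BP1 and G3BP2, which maps RNA crosslinked to the protein, had 2 libraries per protein in untreated and in AS-treated cells. A shared treatment label of 50 mM for 1 h stands on every other sample, those called untreated or siRNA included, so it does not tell which of them were stressed, and size-matched input was not analysed here.

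The 5 TPM libraries had no replicates, so every comparison among them contrasts single libraries and carries no p-value. The siRNAs lowered their targets: G3BP1 stood at 18.7 TPM in siCtrl and 5.996 TPM in siG3BP1, and G3BP2 at 38.1 TPM in siCtrl and 11.4 TPM in siG3BP2. Of 10 noradrenergic neuroblastoma markers, 9 were above 1 TPM in all 5 libraries, and their summed level ran from 3288 to 6239 TPM. Of 4 leukocyte markers 1 exceeded 1 TPM in any library, as did 1 of 4 epithelial and hepatic, 1 of 4 glial and 4 of 4 fibroblast markers, the last with summed levels of 27.9 to 72.2 TPM.

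Fingers and KRAB stretches were read from the longest annotated coding sequence of 240 of the 241 genes. The remaining gene, ZNF781, is a transcribed pseudogene in that release. The proteins had a median of 12 C2H2 fingers (range 1 to 36), with the largest number in ZNF208, and 205 of 240 held a stretch like the KRAB A box in at least 1 isoform. Their longest transcripts had a median length of 4207 nt against 3336 nt over all genes, and a median G + C content of 42.4% against 48.7%. The genes without a KRAB-like stretch were a different group in composition, with a median G + C of 59.6% against 41.9% in those with it. The 3′ untranslated regions had a median of 1548 nt, against 880 nt over all genes.

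The repeated structure can be seen in the linker that joins neighbouring fingers. The canonical linker, which runs from the last zinc-binding histidine of a finger to the aromatic residue of the next, occurred 1339 times in 206 of the 240 proteins and was written with 330 different coding sequences. The commonest of these occurred 160 times in 37 genes. Below, the first linker of each protein whose 30-base window is unique within its gene is shown 5′ to 3′ on the coding strand, from GRCh38. Capitals mark the linker codons, and lower case marks the bases of the next finger that follow. In ZNF91 the second lower-case codon encodes phenylalanine, where the others shown encode cysteine, so the finger that follows lacks this zinc-binding residue. ZNF724 and ZNF91 represent the A + T-rich KRAB genes, ZNF460 and ZNF146 had the highest levels in SG, and ZNF536 and ZNF865 represent G + C-rich genes without KRAB.
ZNF724 (chr19:23223138-23223167, minus strand): CATACTGGAGAGAAACCTTACaaatgtgaa
ZNF91 (chr19:23361416-23361445, minus strand): CATACTGGAGAGAAACCCTACaaatttgaa
ZNF460 (chr19:57291193-57291222, plus strand): CATACTGGGGAGAAGCCCTATaaatgcctg
ZNF146 (chr19:36236720-36236749, plus strand): CACACTGGAGAAAAACCTTTTgagtgtaaa
ZNF536 (chr19:30444016-30444045, plus strand): CACACGGGCGAGAAGCCCTTCaagtgcccg
ZNF865 (chr19:55614732-55614761, plus strand): CACACGGGCGAGAAGCCCTTCtcctgctcc
Of the 21 linker bases, 9 were G or C in ZNF724, 10 in ZNF91, 11 in ZNF460 and 8 in ZNF146, against 14 in both ZNF536 and ZNF865. The linker of ZNF724 occurred in 42 genes and that of ZNF91 in 37. The linker of ZNF146 occurred in 3 genes and that of ZNF460 in 1, and ZNF536 and ZNF865 share an identical linker, found in 3 genes.

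Such similarity could let reads be assigned to the wrong gene. Exact matches of 100 bases between the longest transcript of a gene and any transcript of another of the 241 genes existed for 47 genes and covered over 5% of the transcript in 11. The highest protein identities were between ZNF587 and ZNF417 (98.1% of residues), ZNF98 and ZNF492 (97.9%) and ZNF799 and ZNF443 (93.0%). The shared windows covered 21.7% of the ZNF417 transcript and 14.7% of the ZNF587 transcript. The largest shares were 34.55% in ZNF446, with ZNF324, and 33.05% in ZNF98, with ZNF492. In ZNF581 the share was 12.65%, with ZNF580. The levels of all these pairs are therefore uncertain. The annotated span overlapped another gene on the same strand in 103 of the 241 genes and on the opposite strand in 135, and whether counting used strand was not given in the sources used here.

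Outside SG the family had low median levels, yet more of its genes than of all genes were above 1 TPM. The median was 2.07 TPM in siCtrl, 2.57 in siG3BP1, 2.31 in siG3BP2, 1.76 in Total and 18.2 in SG, and 178 of 241 genes (73.9%) exceeded 1 TPM in siCtrl. Over all 19942 rows the medians were 3.45, 3.26, 2.99, 1.89 and 11.1 TPM in the same order, and 11995 rows exceeded 1 TPM in siCtrl. Genes with a KRAB-like stretch had a median of 1.86 TPM in siCtrl and those without it 9.62 TPM. The leading genes belonged to the second group. ZNF358 had the highest mean level, with 274 TPM in siCtrl, 308 in siG3BP1, 295 in siG3BP2, 236 in Total and 144 in SG. Next came ZNF580, ZNF428 and ZNF581, at 144, 111 and 88.9 TPM in siCtrl, all short G + C-rich transcripts of between 1162 and 1707 nt. ZNF146, which consists almost entirely of fingers, followed by mean level, at 18.2 TPM in siCtrl and 231 TPM in SG.

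**Figure D1:**
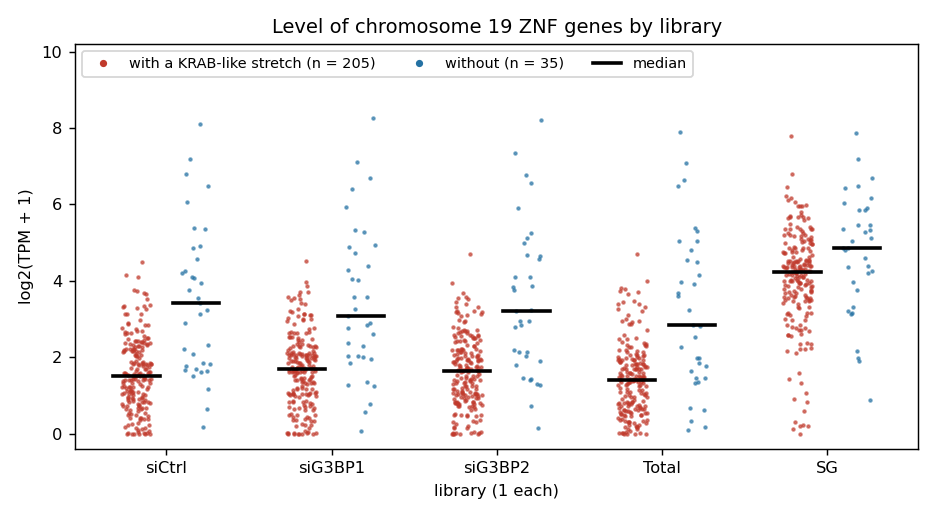
Level of 240 chromosome 19 ZNF genes on a log2(TPM + 1) axis in the 5 TPM libraries, split by the presence of a KRAB-like stretch, with the median of each group as a bar. The genes without the stretch have the higher median in each library (9.62 against 1.86 TPM in siCtrl), and both groups stand highest in SG.

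SG was compared with Total to ask which transcripts were relatively more abundant in stress granule cores. Nearly the whole family was higher in SG: of 231 genes above 1 TPM in either library, 204 (88.3%) had a fold of TPM + 1 above 2 and 2 (0.866%) a fold below 0.5. Over all 13560 genes above 1 TPM these shares were 62.9% and 9.45%. The median log2 fold of TPM + 1 was 2.64 for the chromosome 19 genes and 1.51 for all genes. For the 219 ZNF genes of other chromosomes above 1 TPM the median was 2.53, with 86.3% higher, so the family on chromosome 19 was close to its relatives elsewhere. For the 845 other genes of chromosome 19 it was 0.89, with 46.7% higher and 17.4% lower. Since TPM values are shares of a library, a rise in SG is relative to the other transcripts, and fewer cells holding a transcript and less of it per cell cannot be told apart. Rescaling SG so that the median ratio of all genes was 1, a shift of -1.47 on the log2 scale, left 135 genes higher and 9 lower, which is 56.0% and 3.73% of the 241 genes, against 22.6% and 16.4% of all 19942 rows.

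Genes with and without KRAB are given apart, and the difference between them was not tested. All 196 genes with a KRAB-like stretch above 1 TPM had a log2 fold above 0, 182 passed the higher threshold and 0 the lower, and their median was 2.75. Of 34 genes without it, 21 were higher and 2 lower, with a median of 1.72. The 2 lower genes were neighbours with overlapping spans. ZNF580 fell from 135 TPM in Total to 37.9 in SG, and ZNF581 from 99.4 to 32.0 TPM, with log2 folds of -1.80 and -1.60. ZNF358, ZNF414, ZNF524 and ZNF428 also had smaller values in SG without passing the threshold, with log2 folds of -0.71, -0.59, -0.52 and -0.43. These 6 lowest genes had 59.6% to 69.2% G + C, none carried a KRAB-like stretch, and their transcripts ran from 1162 to 2307 nt.

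At the other end stood genes that were below 1 TPM in Total. ZNF460 was at 0.0887 TPM in siCtrl, 0.25 in siG3BP1, 0.226 in siG3BP2 and 0.635 in Total, and at 221 TPM in SG. ZNF235 rose from 0.439 TPM in Total to 70.9 in SG, ZNF724 from 0.549 to 68.1, ZNF850 from 0.535 to 47.4, ZNF490 from 0.867 to 49.9 and ZNF808 from 0.26 to 32.5 TPM. Their log2 folds of TPM + 1 ran from 4.73 for ZNF808 to 7.09 for ZNF460. All 6 genes had a KRAB-like stretch, as did 205 of 240 genes of the family. The spans of ZNF235, ZNF724, ZNF850, ZNF490 and ZNF808 overlap another coding gene, which for ZNF724, ZNF490 and ZNF808 includes 1 on the same strand. The span of ZNF460 overlaps no coding gene. Whether the assignment of reads bears on these values was not tested. Outside SG, ZNF850, ZNF808 and ZNF460 were below 1 TPM in all 4 libraries, while ZNF235 reached 4.36 TPM in siG3BP2. ZNF91, a repressor of SVA and L1 retrotransposons, was at 2.02 TPM in Total and 49.9 TPM in SG. ZNF93, which binds L1 elements, was at 8.97 and 27.0 TPM, and ZNF274, which recruits SETDB1 to the clusters of its own family, at 4.69 and 30.7 TPM. ZNF208, the gene with most fingers, stayed at 0.232 TPM or less in each of the 5 libraries.

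The fold moved with transcript length, composition and level, whose part in the result was not tested. Across the 231 genes the Spearman coefficient of the log2 fold was 0.48 with transcript length, -0.32 with G + C and -0.46 with the level in Total, a quantity that is also the denominator of the fold. Across 13548 genes in all the coefficients with length and G + C were 0.63 and -0.21. By length class the order of the medians was not the same throughout. Between 2000 and 4000 nt the medians were 2.06 for 88 genes of the family and 1.07 for 4705 other genes, and between 4000 and 6000 nt they were 3.03 for 86 and 2.12 for 3340. Above 6000 nt the family's median was not the larger, with 3.11 for 44 and 3.19 for 2868 genes. By level in Total, the family's median was above that of other genes up to 1 TPM (3.30 against 2.25) and from 1 to 5 TPM (2.74 against 2.49). It was not from 5 to 20 TPM, with 1.37 for 29 genes against 1.59 for 3757, nor above 20 TPM, with -0.18 for 12 against -0.03 for 3900. Split by siCtrl instead, which is not part of the fold, it was above that of other genes from 5 to 20 TPM (2.28 for 40 against 1.94 for 4144) and below it above 20 TPM (-0.19 for 11 against 0.44 for 4856). By composition it was the larger up to 60% G + C, with 2.75 for 107 genes against 1.79 for 2675 between 40% and 45%, and the smaller above 60%, with 0.48 for 16 against 1.04 for 2119.

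**Figure D2:**
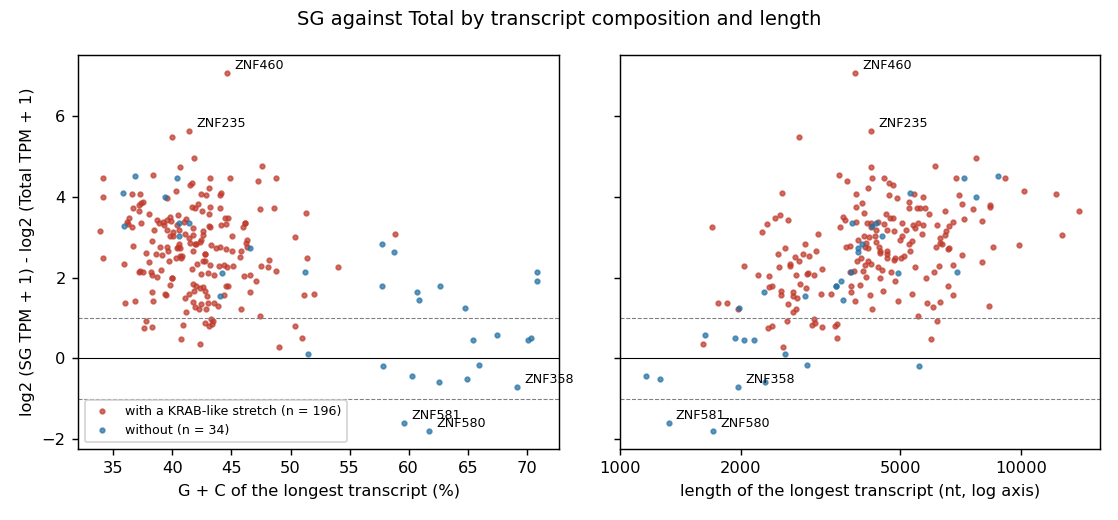
Log2 fold of TPM + 1 in SG against Total (1 library each) for 230 chromosome 19 ZNF genes above 1 TPM in either library, against G + C content (left) and length (right, log axis) of the longest transcript. Dashed lines mark the fold thresholds of 2 and 0.5, and only ZNF580 and ZNF581 lie below the lower line while ZNF460 has the highest value at 7.09.

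The levels were also set beside the rRNA-depleted data. Across 240 genes, the SG level had a Spearman coefficient of 0.79 with the leading transcript of the same gene in the untreated rRNA-depleted library, against 0.51 for Total and 0.54 for siCtrl. Over 19878 genes in all, the 3 coefficients were 0.88, 0.86 and 0.87. ZNF460, at 0.0887 TPM in siCtrl, had 354 reads on its leading transcript in the untreated rRNA-depleted library and 317 after AS. Of the 240 genes, 35 were below 1 TPM in siCtrl, siG3BP1, siG3BP2 and Total. Of these, 12 exceeded 10 TPM in SG, and the leading transcript of 9 of the 12 had a value above 1 in the untreated rRNA-depleted library. How RNA selection bears on the SG result was not tested.

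Position along the chromosome divided the family into 9 clusters of at least 5 genes, counted wherever neighbouring starts lay within 1000000 bases. The largest held 57 genes between 55.5 and 58.5 Mb near the long arm's end, and 9 genes lay outside any cluster. The cluster of 37 genes between 19.7 and 24.1 Mb, where ZNF91, ZNF208, ZNF43 and ZNF85 lie, had the lowest median G + C (37.2%), a median of 1.33 TPM in siCtrl and the highest median fold in SG (log2 3.30). The 39 genes between 51.6 and 53.6 Mb all had a KRAB-like stretch, and 38 of them were higher in SG, with a median of 3.02. The lowest median, 2.06, belonged to the 24 genes between 43.5 and 45.1 Mb, followed by 2.13 in the cluster of 57 genes, which holds ZNF580 and ZNF581.

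The knockdown libraries were compared with siCtrl to ask whether loss of either G3BP protein moved RNA levels. After siG3BP1, 22 of 197 genes above 1 TPM (11.2%) were over 2-fold higher and 9 (4.57%) over 2-fold lower, against 2.53% and 3.69% of all genes above 1 TPM. After siG3BP2, 18 of 195 (9.23%) were higher and 12 (6.15%) lower, against 2.43% and 5.62%. Both comparisons share the siCtrl library. The median log2 fold of TPM + 1 was 0.05 in siG3BP1 and 0.02 in siG3BP2, while all genes had medians of -0.08 and -0.12. The ZNF genes of other chromosomes had medians of -0.07 and -0.13, with 3.45% and 2.99% higher. Of the 22 genes higher in siG3BP1, 21 had a KRAB-like stretch, as did 17 of the 18 in siG3BP2, where the remaining gene was the pseudogene ZNF781. Most of the family had it, 205 of 240 genes, and whether these shares differ was not tested.

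Most of these calls were of weak genes, where a fold of 2 is a small difference in TPM. In siG3BP1, 19 of the 22 higher and 8 of the 9 lower genes had their higher value between 1 and 5 TPM, a range that held 137 of the 197 genes. In that range 13.9% were higher, against 7.24% of all genes, and above 5 TPM 5.00% of 60 genes were higher against 1.04%. In siG3BP2 the shares were 10.3% against 6.20% between 1 and 5 TPM, and 6.78% of 59 genes against 1.24% above 5 TPM. With TPM + 1 in the ratio, 5 genes were higher and 3 lower in siG3BP1, and 6 higher and 5 lower in siG3BP2. As shares of all 241 genes the higher calls were 2.07% and 2.49%, against 0.692% and 0.752% of all 19942 rows, and the lower calls 1.25% and 2.07%, against 1.22% and 1.77%.

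Among genes above 5 TPM the widest changes were as follows. ZNF227 was at 3.90 TPM in siCtrl, 10.5 in siG3BP1 and 4.67 in siG3BP2. Its neighbour ZNF226 was at 3.59, 4.09 and 8.11 TPM in the same order, so these 2 genes of 1 cluster were each high in a different knockdown. Both were also higher in Total, at 11.99 and 10.11 TPM. The span of ZNF227 overlaps ZNF235 on the opposite strand, and whether the assignment of reads bears on its values was not tested. ZNF506 had 2.55 TPM in siCtrl, 5.27 in siG3BP1 and 5.17 in siG3BP2, and ZNF439 had 2.54, 5.16 and 5.54 TPM. In both genes the 2 knockdown libraries lay close together and above siCtrl. ZNF121, without a KRAB-like stretch, rose less, with 3.25, 5.74 and 6.11 TPM, which is under 2-fold in each. ZNF700 reached 6.63 TPM only in siG3BP2, from 2.68 in siCtrl and 3.86 in siG3BP1.

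Of the lower genes above 5 TPM, ZNF526 and ZNF444 lack a KRAB-like stretch and ZNF584 has it. ZNF526 was at 12.6 TPM in siCtrl, 6.49 in siG3BP1 and 5.87 in siG3BP2, and only the second knockdown passed the 2-fold threshold. ZNF497, without KRAB, and ZNF599, with it, had log2 folds of -0.62 and -0.55 in siG3BP1, short of the threshold. ZNF584 fell from 8.87 TPM to 4.16 in siG3BP2 with 7.75 in siG3BP1, while ZNF45, short of the threshold, stood at 12.3, 10.6 and 6.87 TPM in siCtrl, siG3BP1 and siG3BP2. ZNF568, below 5 TPM throughout these 3 libraries, was at 4.24 TPM in siCtrl, 4.24 in siG3BP1 and 0.97 in siG3BP2. ZNF444, a zinc finger protein with a SCAN domain, moved in opposite directions. It had 22.9 TPM in siCtrl, 11 in siG3BP1 and 30.6 in siG3BP2.

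**Figure D3:**
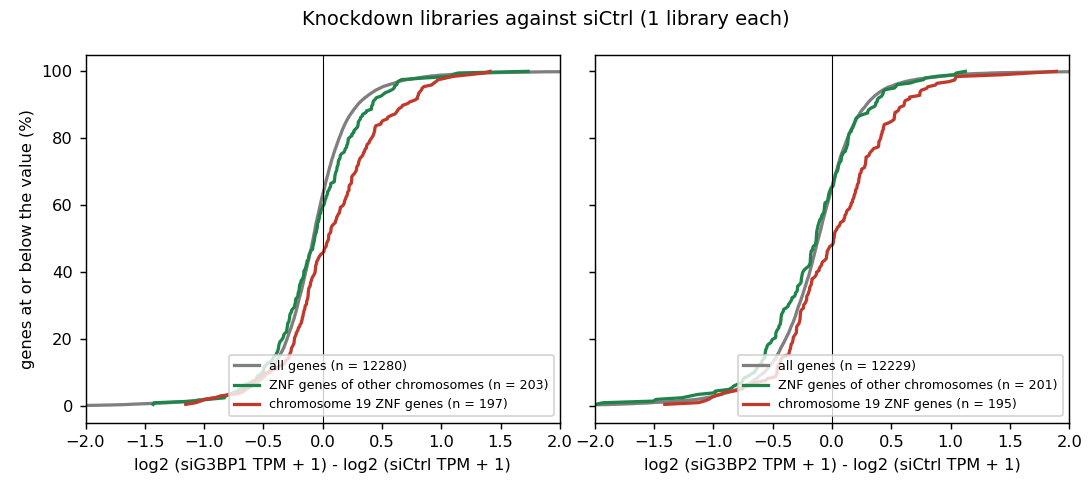
Cumulative share of genes (vertical axis, %) at or below each log2 fold of TPM + 1 in siG3BP1 (left) and siG3BP2 (right) against siCtrl, 1 library each, for genes above 1 TPM in either library. The line of the chromosome 19 ZNF genes lies to the right of the other lines over most of the range, with medians of 0.05 and 0.02 against -0.08 and -0.12 for all genes.

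The knockdowns were also set against each other. Between siG3BP2 and siG3BP1, 11 genes (5.56%) were higher and 13 (6.57%) lower of 198 above 1 TPM, against 2.43% and 3.92% of all genes. Above 5 TPM in the higher library, ZNF444 was the gene that was higher in siG3BP2 and ZNF227 the gene that was lower. The median log2 fold of the family was -0.06 and that of all genes -0.04.

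By the share of genes called, the partners in KRAB repression were near the background of all genes. Of 20 co-repressor genes, 20 were above 1 TPM in all 5 libraries and 0 were over 2-fold higher or lower in siG3BP1 or siG3BP2, where between 2.43% and 5.62% of all genes were called per direction. In SG, 13 of the 20 were higher than in Total and 0 lower, against 62.9% and 9.45% of all genes. Their median log2 fold of TPM + 1 in SG against Total was 2.49, above the median of all genes given earlier. TRIM28, the scaffold that KRAB domains bind, had 391 TPM in siCtrl, 415 in siG3BP1 and 402 in siG3BP2. SETDB1, the histone methyltransferase it recruits, had 29.5, 27.9 and 26.7 TPM.

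Total, from cleared lysate after AS, was compared with siCtrl, from cells with control siRNA, so AS, siRNA and preparation cannot be told apart here. Of 191 genes above 1 TPM, 16 (8.38%) were higher and 43 (22.5%) lower, against 2.37% and 27.2% of all genes. The median of all ratios was below 1 here, and once Total was rescaled by 0.41 on the log2 scale, 32 genes were higher and 25 lower (13.3% and 10.4% of 241, against 3.40% and 9.78% of all rows). ZNF587 fell from 5.45 to 0.836 TPM, ZNF333 from 8.52 to 2.45 and ZNF331 from 7.81 to 2.90, while ZNF222 rose from 3.96 to 8.66 TPM. ZNF587 shares sequence with ZNF417, whose level was 1.60 TPM in siCtrl and 0.40 in Total.

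The rRNA-depleted libraries gave a second view of AS, per transcript. Their values were whole multiples of the value of 1 read divided by transcript length, within a tolerance of 0.05 reads, in 100% of the transcripts above 0 whose identifier and version are in release 44. The libraries had been scaled to 13291958 reads (untreated) and 11281587 reads (AS). A read that fits several transcripts of a gene was counted in each, so transcripts of a gene are not independent, and the values summed to 1039719 and 1216810. The family had 1610 transcripts of 240 genes in these libraries. Of 966 above 1 in either library, 174 (18.0%) were over 2-fold higher after AS and 16 (1.66%) over 2-fold lower, against 6.84% and 2.01% of all 100705 transcripts above 1. These 174 transcripts came from 82 genes. Most were weak: 823 of the 966 had their higher value between 1 and 5, with 158 higher and 16 lower. Of all transcripts, 54284 lay in that range, with 5830 higher and 1900 lower. Above 5, 16 of 143 transcripts of the family were higher and 0 lower, against 1061 and 129 of 46421 in all. Most of these 16 were transcripts of ZNF473 and ZNF211, so they do not stand for as many genes.

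The whole AS library stood higher, with a median log2 ratio of 0.25 over all transcripts above 1 in both libraries, and the family's median was 0.39. For ZNF genes of other chromosomes it was 0.35 and for other genes of chromosome 19 it was 0.15. With the median ratio set to 1, 86 transcripts were higher and 29 lower, which is 5.34% and 1.801% of the 1610, against 1.27% and 1.32% of all 256980 transcripts. When values were summed over the transcripts of a gene, 204 of 225 genes above 1 (90.7%) had the larger sum after AS, against 78.0% of 16457 genes in all. Of all 240 genes, 33 (13.75%) were over 2-fold higher and 2 (0.833%) lower, against 2.64% and 1.06% of 60977 genes. For the leading transcript of each gene, exact 95% counting intervals of the ratio could be given for 229 genes. They lay wholly above 1 in 120 and wholly below 1 in 3, and wholly above the median ratio of 1.19 in 63 and wholly below it in 12. These intervals cover counting error only, not the spread between cultures, and they were not computed for genes outside the family.

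ZNF473, which acts in histone pre-mRNA 3′ end processing, was the clearest rise among well-covered genes. The transcript of 4715 nt had 224 reads untreated and 536 after AS, with a ratio of 2.82 (95% interval 2.41 to 3.31), and that of 2833 nt had 185 and 424 reads, with a ratio of 2.7 (2.27 to 3.23). ZNF211 rose in 9 of its 12 transcripts. Its summed value went from 23.4 to 57.4, and the transcript of 1959 nt had 62 and 154 reads, with a ratio of 2.93 (2.17 to 3.996). By summed value, ZNF420 went from 3.95 to 13.2, ZNF57 from 2.12 to 7.25, ZNF433 from 8.66 to 20.4 and ZNF540 from 1.71 to 5.08. ZNF57 was also among the genes that were higher in Total than in siCtrl, at 6.67 and 2.93 TPM. The other genes named for that comparison did not all move alike. ZNF222, higher in Total, went from a summed value of 3.91 to 8.08, and ZNF587, lower in Total, from 25.3 to 21.4. ZNF331 and ZNF333, also lower in Total, went from 68.1 to 90.8 and from 13.45 to 13.53.

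Lower values were few. ZNF671 fell from a summed value of 6.25 to 2.25, with 43 and 13 reads on its leading transcript and a ratio of 0.356 (0.176 to 0.675). ZNF154, from the same cluster and named after its values were seen, fell from 4.49 to 1.93, with 146 and 55 reads and a ratio of 0.444 (0.319 to 0.609). Both were listed at 0 TPM in siCtrl and Total. A retained-intron transcript of ZNF43 had 301 and 177 reads, with a ratio of 0.693 (0.572 to 0.837), although the summed value of that gene went from 35.0 to 44.2. ZNF587 and ZNF814, whose spans overlap on opposite strands, had ratios of 0.848 (0.682 to 1.05) and 0.852 (0.696 to 1.04), both with intervals that hold 1.

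**Figure D4:**
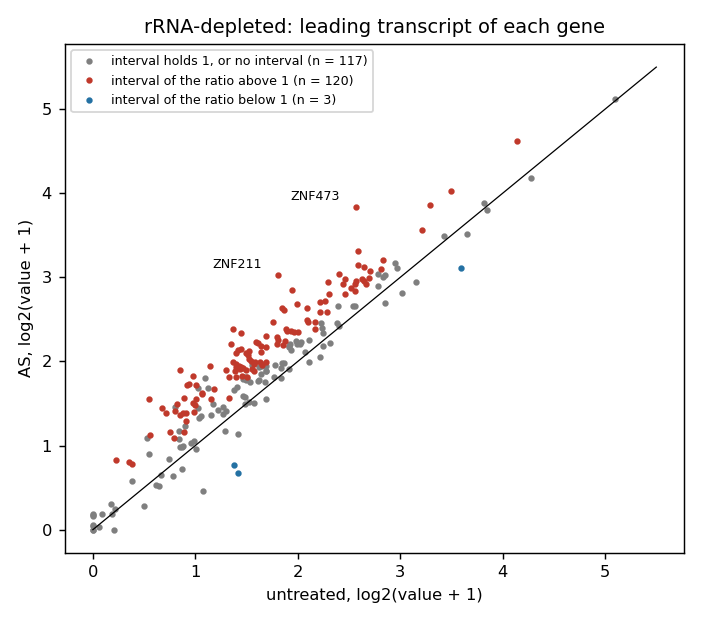
Leading transcript of each of 240 chromosome 19 ZNF genes in the untreated (horizontal) and AS (vertical) rRNA-depleted library, as log2 of the deposited value + 1, with the line of equal values. Points are coloured by the exact 95% counting interval of the ratio, which lies above 1 for 120 genes and below 1 for 3 genes.

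By annotated transcript class, the family was compared with all genes. Of 747 protein-coding transcripts of the family above 1, 130 (17.4%) were higher and 9 lower, and of 84 transcripts annotated for nonsense-mediated decay, 22 (26.2%) were higher and 3 lower. Of 79 with a retained intron, 11 (13.9%) were higher and 4 lower. Over all genes the higher shares of the 3 classes were 5.48%, 6.26% and 6.18%. In the ZNF genes of other chromosomes they were 10.3%, 16.5% and 14.4%, so the raised shares were not particular to chromosome 19. Median log2 ratios in the family were 0.41, 0.35 and 0.19, and over all genes 0.27, 0.29 and 0.19. Differences between the classes were not tested.

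The eCLIP values are 1 log10 number per gene and library, deposited with 2 decimals, the smallest of which match log10 of a whole number + 1. They were above 0 in all 8 libraries for 233 of 241 genes (96.7%), against 82.6% of all rows. Genes without detected RNA could carry such values too. CD3E, at 0 TPM in all 5 TPM libraries, had 1.69 to 2.47. MBP, at 0 TPM outside SG and 0.0154 in SG, had 3.08 to 4.02. A value above 0 is therefore not by itself a sign of binding to the transcript of a gene. Library totals, recovered from the rounded values and so approximate, ran from 4268911 to 26179736, and the 4 libraries of replicate 2 had the 4 smallest. The median value of the family was 2.38 and 1.88 for untreated G3BP1, 2.37 and 1.69 for G3BP1 after AS, 2.43 and 2.09 for untreated G3BP2, and 2.42 and 1.94 for G3BP2 after AS, in replicates 1 and 2. It was below the median of all genes in each library, by less than 0.1, and those medians ran from 1.70 to 2.47. ZNF85, at 1.37 TPM in siCtrl, was listed at 0 in all 8 eCLIP libraries and at 0 in the untreated rRNA-depleted library.

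**Figure D5:**
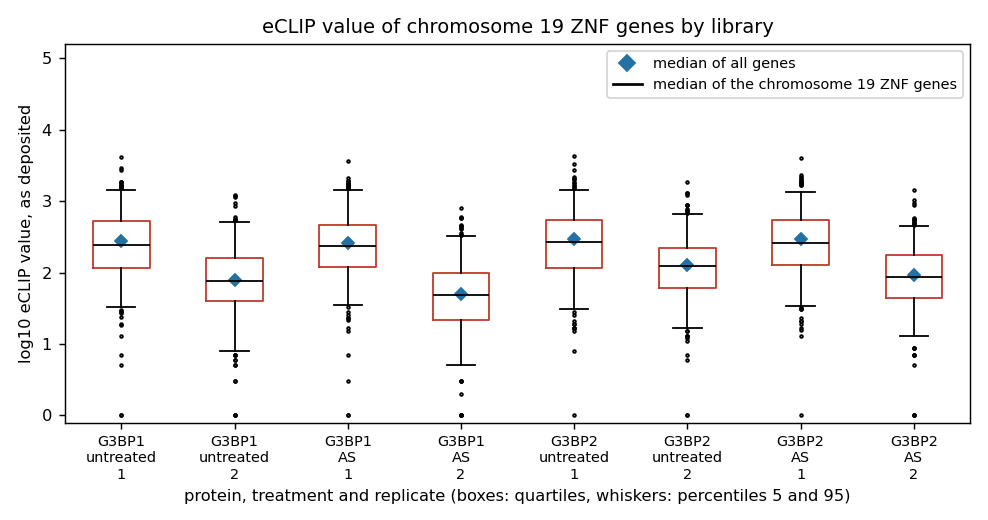
Log10 eCLIP value of the 241 chromosome 19 ZNF genes in the 8 libraries as deposited (boxes are quartiles, whiskers percentiles 5 and 95), with the median of all genes as diamonds. The family's medians run from 1.69 to 2.43 beside those of all genes, and replicate 2 lies lower than replicate 1 in all 4 groups.

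The eCLIP value followed gene span more than RNA level. Across 241 genes the Spearman coefficient of the mean log10 value was 0.72 with span and -0.08 with the level in siCtrl, so values per kb of span are given as well. ZNF536, a neural transcriptional repressor gene of 489 kb, had the highest values. On the log10 scale they were 3.62, 3.07, 3.56 and 2.91 for G3BP1 (untreated 1 and 2, AS 1 and 2) and 3.63, 3.27, 3.60 and 3.16 for G3BP2, all as deposited and not scaled for library totals. On the linear scale its mean per kb was 5.64, below the family's median of 7.34 and the median of 6.70 over all genes. ZNF415 had the highest value per kb (50.1), followed by ZNF875 (33.2) and ZNF814 (32.1). Among the 233 genes above 0 in all 8 libraries, ZNF729 (0.871), ZNF66 (0.906) and ZNF492 (1.11), all from the cluster between 19.7 and 24.1 Mb, had the lowest. ZNF460, so high in SG, had 5.41 per kb, and ZNF358 had 4.71.

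AS against untreated was tested per protein with limma on log10 values scaled to equal totals. None of 239 genes passed an adjusted p of 0.05 for G3BP1 and none of 240 for G3BP2, with 0% called among all 18888 and 19035 genes tested. At an unadjusted p under 0.05, 7 genes were found for G3BP1 (4 higher, 3 lower; 2.93% against 2.56% of all genes) and 4 for G3BP2 (3 higher, 1 lower; 1.67% against 3.34%). ZNF566 was among them for both proteins. Its log10 change was -0.50 ± 0.098 (SE, limma) for G3BP2, with adjusted p = 0.995, and -0.52 ± 0.14 for G3BP1, with adjusted p = 0.996. The median change of the family was -0.013 for G3BP1 and 0.0015 for G3BP2, and the median SE of a single gene was 0.139 and 0.111.

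G3BP2 and G3BP1 were compared over all 8 libraries with treatment as a covariate. Again 0 of 240 genes passed the adjusted threshold, and 12 (7 higher with G3BP2, 5 lower; 5.00%) had an unadjusted p under 0.05, against 1.74% of 19259 genes. The order of these shares turned on the values as deposited with a replicate block, where 28 genes (11.7%) had such a p, against 15.6% of all genes. The family's median change was -0.022 with scaled values and 0.114 with values as deposited, which carry the library totals. ZNF100 had the lowest p, with a log10 change of 0.98 ± 0.27 (SE, limma) and an adjusted p of 0.999, and was above 0 in 5 of the 8 libraries. ZNF43 differed by -0.12 ± 0.039 (adjusted p = 0.999). The response to AS was compared between the proteins by an interaction term. Here 0 genes passed the adjusted threshold, and 3 (1.25%) had an unadjusted p under 0.05, against 0.748% of all genes. ZNF274 was the lowest, with 0.21 ± 0.082 (SE, limma) and an adjusted p of 1.000.

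The palindrome CCAGNCTGG was searched in the longest transcript of each gene. Its centre was any base, so the pattern is looser than the consensus given in the study, which has G or C there. It is its own reverse complement, so a search of either strand finds the same sites. It occurred at least once in 138 of 241 genes (57.3%), in 38.8% of 19910 annotated rows and in 46.0% of the other genes of chromosome 19. Its density was 0.367 per kb in the family, 0.244 in the ZNF genes of other chromosomes, 0.350 in the other genes of chromosome 19 and 0.199 over all genes. A match describes these letters only and is no binding site.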

How the data were processed

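The gene-level TPM values were deposited by the authors, who aligned RNA-seq reads with HISAT2 2.1.0 to GRCh38 and quantified GENCODE genes with StringTie, with 1 library per condition. The deposited eCLIP table holds log10 values per gene made by the authors from UMI-collapsed reads, and which part of their input normalisation it includes is not given in the sources used here. The rRNA-depleted table was deposited as TPM per transcript, but its column sums differ between libraries, so it was treated as a signal scaled per library and length. No column was left unmapped (0).

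Identifiers were matched to GENCODE release 44 (19910 of 19942 rows), whose coordinates are GRCh38. Genes, lists and comparisons were chosen with earlier results of these data known. Genes were named by a rule: per comparison the 6 largest and 6 smallest folds of value + 1 among genes above 5 in a library, the 10 highest mean TPM, the eCLIP extremes, the leading gene of each cluster, the closest protein pairs and a fixed list. ZNF100, ZNF154, ZNF566, ZNF573 and ZNF781 fall outside this rule and were picked with their values in view.

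A TPM or rRNA-depleted ratio above 2 or below 0.5 with over 1 in the higher library was called (TPM + 1 for SG). The eCLIP values were scaled to equal totals and tested in R 4.3.3 by limma 3.58.1 with a trend on mean level, Benjamini-Hochberg adjustment over all genes above 0 in at least 2 libraries, and no block. Replicates are not described as separate cultures, so p-values measure the spread between these libraries. Fingers and KRAB stretches came from translated GENCODE coding sequences, in place of the RefSeq proteins planned. Fits and call rules were run on simulated data with large changes set in, which checks the code and not the detection of small changes. Depth of the TPM libraries is unknown. Other pseudocounts, minimums, folds and scalings, a replicate block, other filters and leaving out each eCLIP library were tried as alternatives, and 1 transcript per gene was added after seeing the data.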

Additional observations from a re-analysis of the deposited data

Results flagged for a closer look

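ZNF444 lay on opposite sides of siCtrl in the knockdowns, with 22.9 TPM in siCtrl, 11 in siG3BP1 and 30.6 in siG3BP2. The log2 fold of TPM + 1 was negative in siG3BP1 against siCtrl, positive in siG3BP2 against siCtrl (0.40) and 1.40 in siG3BP2 against siG3BP1. With 1 library per condition the difference was not tested. No group held the 4 samples needed to look for a sample far from the others.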

How the results depend on the processing

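Single libraries limit the TPM and rRNA-depleted counts to descriptions, and weak genes make them depend on the settings. In the order siG3BP1 against siCtrl, siG3BP2 against siCtrl and siG3BP2 against siG3BP1, the higher genes numbered 5, 6 and 6 and the lower genes 3, 5 and 6 with TPM + 1. With a minimum of 5 TPM they numbered 3, 4 and 1 (higher) and 1, 2 and 1 (lower), and with a fold of 1.5 they numbered 40, 37 and 21 (higher) and 22, 26 and 30 (lower). For Total against siCtrl, TPM + 1 gave 4 higher and 17 lower, and a median ratio of 1 gave 32 and 25. For SG against Total, a median ratio of 1 gave 135 higher and 9 lower, and folds of 4 and 0.25 gave 160 higher and 0 lower. ZNF574 was called higher in SG and had a log2 fold of -0.0032 with the median ratio set to 1. For AS in the rRNA-depleted data, value + 1 gave 32 higher and 1 lower transcripts, a minimum of 5 gave 16 and 0, a fold of 1.5 gave 375 and 38, a median ratio of 1 gave 86 and 29, sums per gene gave 33 and 2, and the transcript with the largest mean of each gene (chosen after seeing the data) gave 25 and 3. In the same order the higher shares of the family were 1.988%, 0.9938%, 23.29%, 5.342%, 13.75% and 10.42%. Over all transcripts or genes they were 0.5903%, 0.4129%, 8.068%, 1.267%, 2.642% and 1.801%. The lower shares were 0.06211%, 0%, 2.36%, 1.801%, 0.8333% and 1.25%. Over all transcripts or genes these were 0.1841%, 0.0502%, 1.72%, 1.32%, 1.061% and 0.7872%. The 0 genes past the adjusted eCLIP threshold remained 0 under each alternative that kept all libraries. Leaving out 1 library left 1 sample in its group, so only the median change of the family is given for those fits. It ran from -0.0456 to 0.0251 (G3BP1) and from -0.0365 to 0.0270 (G3BP2). For G3BP2 against G3BP1 it ran from -0.0342 to -0.00523, and for the interaction from -0.0309 to 0.0503. The replicate block gave 0 adjusted calls too and 8, 4, 17 and 4 unadjusted ones on scaled values, and 3, 2, 28 and 1 on values as deposited, which without the block gave 0, 0, 3 and 0. On scaled values with the block the shares were 3.347%, 1.667%, 7.083% and 1.667%, against 3.33%, 3.604%, 3.261% and 1.101% of all genes. On values as deposited with the block they were 1.255%, 0.8333%, 11.67% and 0.4167%, against 2.727%, 2.874%, 15.56% and 0.8827%. Without the block they were 0%, 0%, 1.25% and 0%, against 0.2435%, 0.8406%, 0.784% and 0.2492%. Deviations of same-numbered libraries correlated by 0.11 to 0.54 over 16476 genes, but with 2 numbers per group they were taken as names only. The cause of these changes was not tested. The family was also widened to all coding genes of chromosome 19 named ZNF, ZFP, ZSCAN or ZIM (264 rows). With the 2-fold call rules and the unblocked eCLIP fit on scaled values, no count moved by over 1.5 times. Under the alternatives some small counts moved more. For the interaction on values as deposited with the block, the unadjusted count went from 1 to 2.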

Other observations

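ZNF85 was at 1.37, 2.03, 1.03, 1.38 and 10.98 TPM in siCtrl, siG3BP1, siG3BP2, Total and SG, while its 14 transcripts summed to 0 in the untreated and 0.583 in the AS rRNA-depleted library and its eCLIP value was 0 in all 8 libraries. ZNF671 showed the opposite, with 43 reads on its leading transcript in the untreated rRNA-depleted library and values of 0 TPM in siCtrl, Total and SG. ZNF573 was at 0.0632 TPM in siCtrl and 10.8 TPM in SG, with a value of 1.97 on its leading transcript in the untreated rRNA-depleted library. ZNF573 was named after its values were seen.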
